A study of Mus musculus with 12 samples.

Results

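The immunity-related GTPases (IRGs) are a family of interferon-inducible GTP-binding proteins, and 7 mouse genes of the family were followed here by their symbols, namely Irgm1, Irgm2, Igtp, Iigp1, Ifi47, Tgtp1 and Tgtp2. They are 7 of the 43278 symbols in the deposited gene table. The table holds RNA-seq of thioglycolate-elicited peritoneal macrophages (PMφs), which are cells drawn into the mouse peritoneal cavity by an irritant. Cells were harvested after 4 d by lavage, and those that adhered were used after 18 h of culture. All groups came from wild-type C57BL/6J mice of 8 to 12 wk, with male and female littermates of an experiment pooled and the pool then divided into groups. The 4 groups of 3 libraries each were untreated control PMφs, PMφs cultured with 100 µg/ml human medium oxidized low-density lipoprotein (oxLDL) for 24 h, PMφs given 10 ng/ml ultrapure LPS, and PMφs given oxLDL and LPS (oxLDL+LPS). oxLDL is a modified lipoprotein that loads macrophages with lipid, and LPS is a bacterial cell wall component sensed by TLR4. In culture experiments of the study LPS came after oxLDL. The methods give up to 6 h of LPS in one sentence and up to 3 h in another. The exact time for these libraries is not given in the sources used here. A pool mixes animals, so each library is a culture and not a mouse, and differences between sexes or animals cannot be read from it.

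IRGs are best known for cell-autonomous defense, in which an infected cell attacks the vacuole that a parasite or bacterium lives in. Effector members of the family (Iigp1, also called Irga6, Ifi47, also called Irgd, and Tgtp1 and Tgtp2, which encode Irgb6) load onto such vacuoles, whereas the regulatory members Irgm1, Irgm2 and Igtp (Irgm3) sit on membranes of the cell and hold the effectors in their inactive, GDP-bound state. In macrophages LPS reaches these genes through IFN-β made by the cell itself, and IFN-γ made by lymphocytes and NK cells is their other known inducer.

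Of the 7 genes, 6 lie on chromosome 11 and Iigp1 lies on chromosome 18 (chr18:60376027-60392634, plus strand, GRCm38). Irgm1 (chr11:48861968-48871683, minus strand), Tgtp1 (chr11:48985327-48994172, minus strand), Tgtp2 (chr11:49057194-49064206, minus strand) and Ifi47 (chr11:49076587-49096974, plus strand) form a cluster. Igtp (chr11:58199556-58207591, plus strand) and Irgm2 (chr11:58199618-58222782, plus strand) form another, and their annotated exons share 162 bases of the same strand, so that reads from there could not be given to 1 of them. Tgtp1 and Tgtp2 are near copies, with 1241 of 1245 coding bases identical (99.7%). Of all stretches of 150 bases in their longest annotated transcripts, 74.1% for Tgtp1 and 71.7% for Tgtp2 also occur letter for letter in another gene of the family. How reads from such stretches were assigned is not given in the sources used here, so the split between Tgtp1 and Tgtp2 is uncertain, and the sum of both is given beside the main results. By contrast, Irgm1 and Irgm2 shared 63.0% of aligned coding positions. No such stretch of 150 bases was shared for the longest transcripts of Irgm1, Irgm2, Iigp1 or Ifi47. Shorter transcripts were not cut into stretches, so the exon bases that Irgm2 shares with Igtp can be missed by this count.

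The promoters are shown because interferon-responsive genes are read through short sites that can be looked for in them. RefSeq promoters (GRCm38.p6, 250 bases before to 50 after the start) held 6 of the 7 genes, all but Iigp1. Both strands were searched for the core of the interferon-stimulated response element (ISRE), written as GAAA, any 2 bases and GAAA again, which IRFs bind, and for TTCNNNGAA, the gamma-activated sequence (GAS) known from promoters that answer to IFN-γ. The ISRE core was present in Irgm1, Irgm2, Igtp, Tgtp1 and Tgtp2, and in 3.44% of all 32851 promoters. The GAS was present in Irgm2, Igtp, Tgtp1 and Tgtp2, and in 8.3% of all promoters. Both were present together in 0.454% of promoters. In the lines below, which run 5′ to 3′ on the strand of the gene, capitals mark these matches.

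Igtp: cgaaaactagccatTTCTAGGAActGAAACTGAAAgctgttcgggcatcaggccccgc
Irgm2: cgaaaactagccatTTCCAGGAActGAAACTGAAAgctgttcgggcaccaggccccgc
Tgtp1: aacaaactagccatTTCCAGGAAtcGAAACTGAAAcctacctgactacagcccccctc
Tgtp2: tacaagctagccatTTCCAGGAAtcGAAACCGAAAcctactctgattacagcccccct
Irgm1: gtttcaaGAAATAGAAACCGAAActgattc
Ifi47: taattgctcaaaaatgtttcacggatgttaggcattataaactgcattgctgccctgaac

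The lines lie at chr11:58199497-58199554 for Igtp, chr11:58214888-58214945 for Irgm2, chr11:48992291-48992348 for Tgtp1, chr11:49064250-49064307 for Tgtp2, chr11:48871428-48871457 for Irgm1 and chr11:49076527-49076586 for Ifi47. In the first 4 lines a GAS is followed by an ISRE core 2 bases downstream. An arrangement with 0 to 3 bases between the sites was looked for after these lines had been seen. It was present in 6 of 32851 promoters (0.0183%), those of Igtp, Irgm2, Tgtp1, Tgtp2, the family gene Gm12185 and Bst2. The Tgtp1 line lies shortly before the annotated start of Gm12185 (chr11:48904656-48992226, minus strand). The promoters of Tgtp1 and Gm12185 can therefore hold the same site, and the 6 promoters need not hold 6 separate sites. The lines of Igtp and Irgm2 were identical at 56 of 58 positions, and those of Tgtp1 and Tgtp2 at 43 of 58. The ISRE core began 34 bases before the start in Igtp, 64 in Irgm2, 77 in Tgtp1 and 70 in Tgtp2. In Irgm1, where 2 ISRE cores overlap and begin 30 and 24 bases before the start, the line lies in an annotated exon and was kept to 30 bases. Neither set of letters was present in the window of Ifi47. A match of letters is a description and does not show that a factor was bound in these cells.

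LPS raised the 3 regulatory members from levels of 207 or more in untreated cells. Values are normalized counts, which are read counts that the authors had scaled per library. Irgm1, which is linked to autophagy as well, measured 680, 850 and 850 in the control libraries and 14121, 18170 and 20261 in the LPS libraries. Irgm2 measured 313, 313 and 411 in control and 6271, 7899 and 8660 in LPS libraries. Igtp, which is found on the endoplasmic reticulum and lipid droplets, measured 207, 210 and 229 in control and 8522, 8154 and 10524 in LPS libraries. Every LPS library was above every control library for each of these genes. On the scale of log2(value + 1), the difference between LPS and control was 4.46 ± 0.16 (SE) for Irgm1, with an adjusted p of 5.51e-07 by limma, and the ratio of the means was 22.1. Irgm2 differed by almost the same amount, 4.46 ± 0.16 (SE) with an adjusted p of 5.61e-07 by limma. Igtp rose by 5.38 ± 0.12 (SE) with an adjusted p of 9.64e-08 by limma, and its ratio of means was 42.1.

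The effector members rose from lower starting levels and by larger factors. Ifi47 measured 141, 117 and 175 in the control libraries and 14426, 14200 and 20573 in the LPS libraries. Tgtp2 stood at 12 in each of the 3 control libraries and at 5011, 3920 and 6163 in LPS libraries. Iigp1 measured 6, 7 and 2 in control and 3797, 2577 and 3812 in LPS libraries. For these genes too, no LPS library overlapped with a control library. The difference was 6.82 ± 0.19 (SE) for Ifi47, with an adjusted p of 2.35e-07 by limma. It was 8.57 ± 0.17 (SE) for Tgtp2, with an adjusted p of 7.29e-08 by limma, and 8.55 ± 0.17 (SE) when Tgtp1 and Tgtp2 were added into 1 row. Iigp1 and Tgtp1 passed the filter on low values only through the LPS libraries, so they had to differ, and their test adds nothing to their values. Tgtp1 measured 1, 0 and 1 in control and 241, 112 and 171 in LPS libraries. From the reads that these values stand for, the LPS to control ratio was 304 for Tgtp1 (95% exact interval 83.6 to 2515, from 2 reads in the control libraries) and 653 for Iigp1 (413 to 1103), intervals that cover counting error only.

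**Figure D1:**
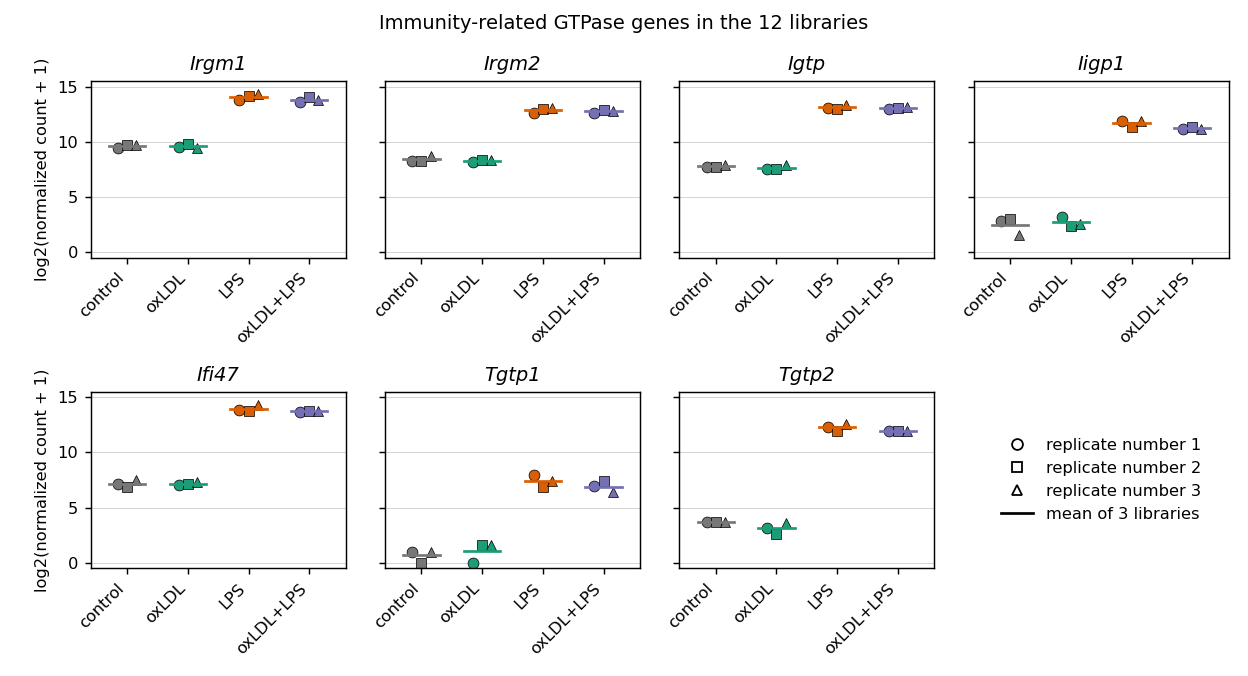
Normalized counts of the 7 genes on the log2(value + 1) scale (y axis) in the 4 groups (x axis). Each point is a library, its shape gives the replicate number and a line marks the mean of 3 libraries. In every panel the 6 libraries with LPS lie above the 6 without it, from Irgm1 (12189 in the lowest library with LPS against 879 in the highest without) to Tgtp1 (83 against 2).

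All 7 genes were called higher with LPS at an adjusted p under 0.1, a call that 31.4% of the 13006 genes tested received, and 30.3% were called lower. All 7 were also without overlap, with every LPS library above every control library, as were 32.1% of genes tested. The 5 genes that reached a value of 10 in all 6 libraries, namely Irgm1, Irgm2, Igtp, Ifi47 and Tgtp2, were all called. LPS libraries held larger sums of normalized counts than the others. When the libraries were rescaled to the same total, the median of all genes moved from −0.0007 to −0.48, and 2207 genes were called higher and 7189 lower in place of 4087 and 3938. The 7 genes were called higher on that scale as well, with 3.97 for Irgm1 and 3.97 for Irgm2. The 7 genes summed took 0.00794% to 0.00950% of all normalized counts in control and 0.228% to 0.266% in LPS libraries.

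Levels of different genes were compared per kb of annotated exon. In control libraries the order of the normalized counts per kb was Irgm1 (137 ± 16.9, SD, n = 3), Igtp (107 ± 5.90), Irgm2 (93.7 ± 15.3), Ifi47 (58.4 ± 11.8), Tgtp2 (4.08 ± 0), Iigp1 (0.859 ± 0.454) and Tgtp1 (0.208 ± 0.180). The libraries of Igtp and Irgm2 overlapped and those of other neighbours did not. With LPS the order changed to Ifi47 (6631 ± 1462), Igtp (4484 ± 631), Irgm1 (3015 ± 537), Irgm2 (2062 ± 331), Tgtp2 (1713 ± 382), Iigp1 (583 ± 122) and Tgtp1 (54.5 ± 20.2), where Irgm2 and Tgtp2 overlapped. The effector Ifi47 thus went from the fourth place to the first, and Irgm1 from the first to the third. The order in oxLDL+LPS libraries was the same as in LPS libraries, with no overlap between neighbours. The places of Tgtp1 and Tgtp2 rest on the assignment of reads they may share.

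**Figure D2:**
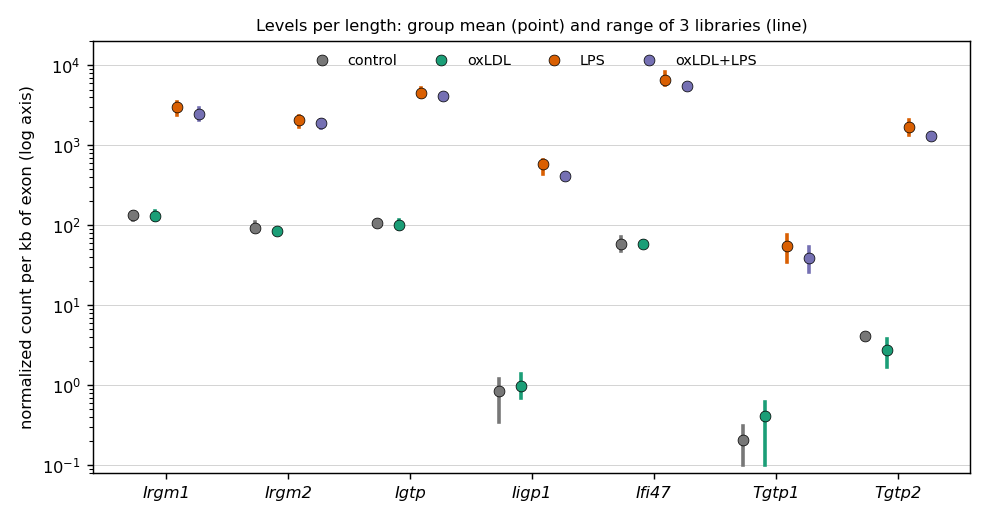
Normalized count per kb of annotated exon (log axis) for the 7 genes (x axis), with a point for the mean of 3 libraries and a line for their range, colored by group. A range that starts at 0 is drawn down to the edge of the axis. Control and oxLDL points of the 3 regulatory genes and Ifi47 lie between 58.0 and 137, those of Tgtp2, Iigp1 and Tgtp1 between 0.208 and 4.08, and the LPS points span 54.5 to 6631.

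LPS acted on the 7 genes in oxLDL-loaded PMφs as well. In oxLDL libraries Irgm1 measured 737, 879 and 672, and in oxLDL+LPS libraries 12189, 17156 and 13882. Ifi47 measured 132, 141 and 157 in oxLDL and 12953, 13710 and 14057 in oxLDL+LPS libraries. Tgtp2 measured 8, 5 and 11 in oxLDL and 3877, 3894 and 3925 in oxLDL+LPS libraries. Groups did not overlap for these genes. All 7 were called higher, as were 28.1% of the 12883 genes tested, while 26.3% were called lower, and 29.6% of genes tested were higher without overlap. The differences on the log2 scale were 4.23 ± 0.15 (SE) for Irgm1, 4.49 ± 0.10 for Irgm2, 5.38 ± 0.11 for Igtp and 6.56 ± 0.09 for Ifi47. The adjusted p from limma of Irgm1, the highest among these 4, was 1.34e-06. Iigp1, Tgtp1 and Tgtp2 passed the filter only through the oxLDL+LPS libraries and had to differ. Their ratios from the implied reads were 419 for Iigp1 (95% exact interval 268 to 696), 82.6 for Tgtp1 (35.04 to 256) and 480 for Tgtp2 (330.0 to 729).

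**Figure D3:**
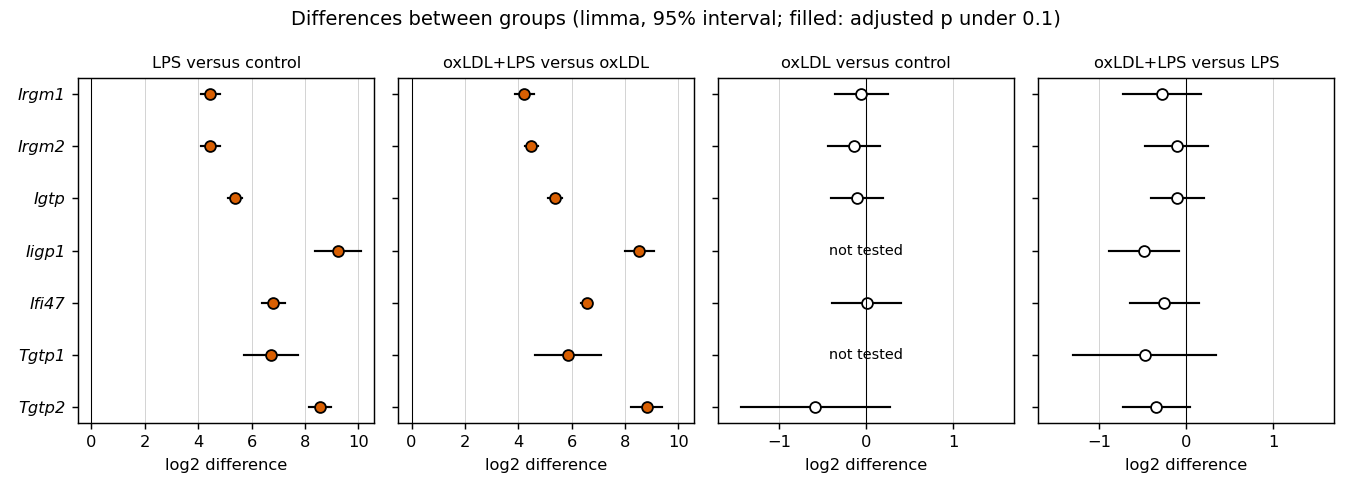
Difference between groups in log2(normalized count + 1) (x axis) for each gene (y axis) in 4 comparisons. The 95% intervals are from limma fits that do not use the replicate number, and filled points have an adjusted p under 0.1. Both comparisons of LPS lie to the right of 0 by 4.23 or more, and the points of both comparisons of oxLDL are open, with Iigp1 and Tgtp1 too low to be tested without LPS.

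oxLDL alone gave no call for any of the 7 genes. Irgm1 measured 737, 879 and 672 with oxLDL against 680, 850 and 850 in control, and Igtp measured 186, 184 and 234 against 207, 210 and 229. Both groups overlapped for these genes, and also for Irgm2 and Ifi47. Of the 5 genes that passed the filter, 0 were called by limma, as were 0% of the 12734 genes tested, of which 379 had an unadjusted p under 0.05. The intervals of this comparison leave the pairing by replicate number unused. The 95% interval of the difference was −0.36 to 0.25 for Irgm1, −0.44 to 0.16 for Irgm2, −0.40 to 0.19 for Igtp and −0.39 to 0.40 for Ifi47. Tgtp2 was the only one of the 7 whose oxLDL libraries (8, 5 and 11) all lay below the control libraries (12 each), as was the case for 3.9% of genes tested. Its difference of −0.59 had an interval of −1.44 to 0.27, and Iigp1 (8, 4 and 5 against 6, 7 and 2) and Tgtp1 (0, 2 and 2 against 1, 0 and 1) were too low to be tested. With the replicate number as a block, 4.7% of genes tested were called and the 5 genes were not.

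In cells given LPS, all 7 genes had a lower mean with oxLDL than without it. None of these differences passed the test without the block, and the intervals below leave the pairing by replicate number unused. Means of oxLDL+LPS libraries were 70.6% of those of LPS libraries for Iigp1, 71.2% for Tgtp1, 77.5% for Tgtp2, 82.3% for Irgm1, 82.8% for Ifi47, 92.2% for Irgm2 and 92.6% for Igtp. Iigp1 measured 3797, 2577 and 3812 with LPS and 2225, 2629 and 2335 with oxLDL+LPS, where the second library of each group broke the separation. Ifi47 measured 14426, 14200 and 20573 with LPS and 12953, 13710 and 14057 with oxLDL+LPS, and was the only one of the 7 whose groups did not overlap, as was the case in that direction for 6.37% of genes tested. limma called 0 of the 7 genes and 0% of the 12769 genes tested, of which 890 had an unadjusted p under 0.05. The difference was −0.48 for Iigp1 (95% interval −0.88 to −0.08, adjusted p 0.699 by limma), −0.48 for Tgtp1 (−1.301 to 0.34), −0.34 for Tgtp2 (−0.73 to 0.04) and −0.28 for Irgm1 (−0.73 to 0.16). It was −0.25 for Ifi47 (−0.65 to 0.14), −0.11 for Irgm2 (−0.47 to 0.25) and −0.10 for Igtp (−0.41 to 0.20). The median over the 7 genes was −0.28, and that over all genes tested was −0.01. For Irgm2 and Igtp the sign depended on the scale, since quantile normalization gave 0.04 and 0.03. Single libraries moved these differences by much, and none of the 7 was called without any 1 of them. Leaving out 1 library at a time gave −0.67 to −0.39 for Iigp1, −0.76 to −0.21 for Tgtp1, −0.51 to −0.18 for Tgtp2, −0.43 to −0.17 for Irgm1, −0.34 to −0.077 for Ifi47, −0.24 to −0.011 for Irgm2 and −0.18 to 0.0086 for Igtp. The values nearest to 0 came without LPS replicate 3 for Iigp1, Tgtp2, Ifi47, Irgm2 and Igtp, without LPS replicate 1 for Tgtp1 and without oxLDL+LPS replicate 1 for Irgm1.

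The replicate numbers pair the libraries, and the 3 pairs did not behave alike. In the pair numbered 1 all 7 genes were lower with oxLDL+LPS than with LPS, with a median of −0.21 on the log2 scale and ratios from 0.498 for Tgtp1 to 0.983 for Irgm2. The pair numbered 3 had all 7 lower as well, with a median of −0.55 and a range from −1.03 to −0.25. In the pair numbered 2, however, 4 of the 7 were lower, the median was −0.01, and Tgtp1 was higher by 0.60. The medians of all genes in these pairs were 0, 0 and −0.04. With the replicate number as a block, limma called Iigp1 (adjusted p = 0.0682) and Tgtp2 (adjusted p = 0.0988) lower, 2 of the 7, beside 8.75% of genes tested that were called lower and 4.41% that were called higher. Irgm1 (adjusted p = 0.164), Ifi47 (0.219), Tgtp1 (0.330), Irgm2 (0.470) and Igtp (0.532) were not called. Leaving out a pair from that fit, an alternative added after seeing the data, gave 0 of the 7 without number 1, 5 without number 2 and 0 without number 3, and the genes called over the whole table were 70, 2945 and 0. Of the genes taken as signs of oxLDL loading, Cd36 had its lowest ratio in pair 2 and Plin2 in pair 3. Cd36, the scavenger receptor that takes up oxLDL, was 2.24, 1.48 and 2.34 times as high with oxLDL+LPS as with LPS in pairs 1, 2 and 3, and Plin2, which coats lipid droplets, was 1.56, 1.32 and 1.27 times as high. The LPS-induced chemokine gene Cxcl10 was 0.384, 0.938 and 0.363 times as high. Il1b was 0.149, 0.52 and 0.143 times as high, and Tnf was 0.566, 0.698 and 0.628 times as high. The sum of Tnf, Il6, Il1b and Cxcl10 was 0.342, 0.667 and 0.323 times as high, with all 4 lower in every pair. The 7 mesothelial and fibroblast markers summed to 28756, 13500 and 5680 with LPS and to 16430, 14434 and 4793 with oxLDL+LPS, which is 0.571, 1.07 and 0.844 times as high, and 6, 3 and 6 of the 7 were lower with oxLDL+LPS. The part of oxLDL loading, of other cells or of the culture in the difference between pairs was not tested.

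**Figure D4:**
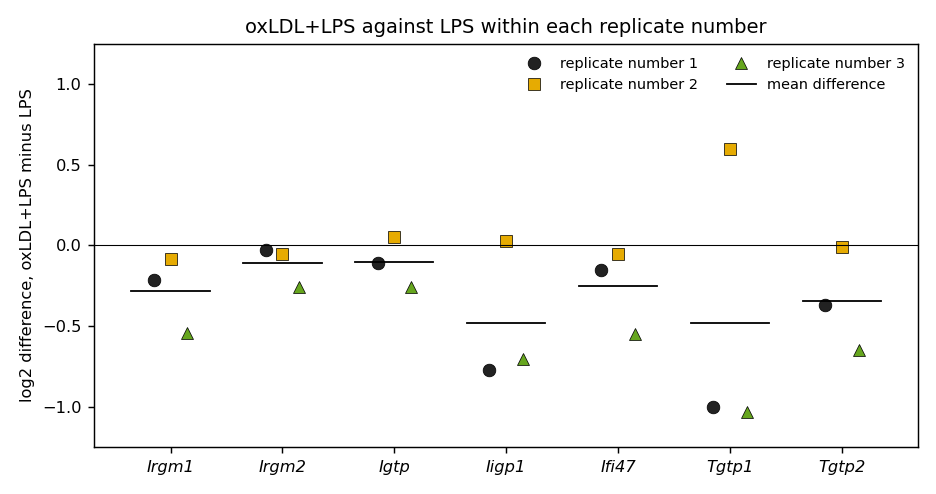
Difference in log2(normalized count + 1) between the oxLDL+LPS and the LPS library of the same replicate number (y axis) for the 7 genes (x axis), with a line for the mean difference. All points of numbers 1 and 3 lie below 0, down to −1.03 for Tgtp1, whereas those of number 2 lie between −0.08 and 0.60.

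Whether the response to LPS itself differed with oxLDL was tested as an interaction on all 12 libraries. The contrast was −0.22 for Irgm1 (95% interval −0.73 to 0.29), 0.03 for Irgm2 (−0.41 to 0.47), 0.00 for Igtp (−0.36 to 0.36) and −0.26 for Ifi47 (−0.76 to 0.24). Among the low genes it was −0.71 for Iigp1 (−1.77 to 0.34), −0.87 for Tgtp1 (−2.42 to 0.68) and 0.24 for Tgtp2 (−0.45 to 0.93). limma called 0 of the 7 and 0% of the 13465 genes tested, with or without the block, where 967 and 416 had an unadjusted p under 0.05. Even for Igtp, which had the narrowest interval of the 7, a response lower or higher by 0.36 on the log2 scale lies at the bounds. All these intervals come from the fit without the block and leave the pairing by replicate number unused.

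Most of the other annotated genes of the family that could be tested rose with LPS too. Of 10 such genes, 9 passed the filter, of which Gm4951, Gm4841 and F830016B08Rik passed only through the LPS libraries and had to differ. Of the 6 that reached 10 in every control library, 5 were called higher, namely Gm12250, Gm5431, 9930111J21Rik1, 9930111J21Rik2 and Gm12185, and 1 lower. Gm12250, which encodes the effector Irgb10 although the annotation lists it as a processed pseudogene, measured 42, 28 and 57 in control and 4708, 4863 and 6619 in LPS libraries, with a ratio of means of 127. Gm5431 measured 171, 204 and 251 in control and 3438, 3957 and 4912 in LPS libraries, a difference of 4.29 ± 0.18 (SE). The smallest rises among these 5 were those of 9930111J21Rik1 (1.49) and 9930111J21Rik2 (1.61), neighbours of Tgtp1 and Tgtp2 on chromosome 11. Irgq, a member outside the interferon-inducible clusters that lies on chromosome 7, was the exception. It fell by 0.38 on the log2 scale, from 732, 756 and 707 to 524, 623 and 538 (adjusted p 0.0142 by limma), and it also fell by 0.40 in oxLDL+LPS against oxLDL (adjusted p 0.0292 by limma). Irgc1, known from the testis, stayed between 0 and 5 in every library and was not tested. In oxLDL+LPS against LPS all 9 tested genes had a negative difference with a median of −0.39, and none was called. The block called 4 lower, Gm5431 (−0.41), 9930111J21Rik1 (−0.47), 9930111J21Rik2 (−0.34) and Gm12185 (−0.56), beside 8.75% of all genes tested. Gm12185 shares 223 exon bases with Tgtp1. oxLDL alone against control gave a negative difference in 5 of the 6 tested genes and a positive one in 1. None was called without the block, which called 3 lower, beside 2.91% of all genes tested. In pairs 1, 2 and 3 that difference was −0.26, −0.58 and −0.39 for Gm5431 and −0.78, −0.43 and −0.56 for 9930111J21Rik1. It was −0.21, −0.32 and −0.27 for 9930111J21Rik2 and −0.33, −0.68 and 0.04 for Gm12185.

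Guanylate-binding proteins, the larger interferon-induced GTPases that act with IRGs on vacuoles, also rose with LPS. Of 11 listed genes, 9 were found in the table and tested, of which Gbp4, Gbp8 and Gbp11 passed the filter only through the LPS libraries and had to differ. The other 6, Gbp2, Gbp3, Gbp5, Gbp6, Gbp7 and Gbp9, reached 10 in every control library and were all called higher. Gbp5, which drives inflammasome activation, had the largest difference of these 6 (10.81 ± 0.19, SE) and Gbp9 the smallest (5.85). In oxLDL+LPS against LPS all 9 differences were negative on the log2 scale, from −0.72 to −0.29, and 0 were called by limma. Gbp11 (13, 32 and 14 with LPS, 4, 57 and 12 with oxLDL+LPS) was negative on that scale alone, since its mean was higher with oxLDL+LPS (ratio 1.24). The block called Gbp4 (−0.72), Gbp6 (−0.34), Gbp7 (−0.35) and Gbp9 (−0.58) lower, 4 of the 9, beside 8.75% of all genes tested. Without pair 3 the block called 0 genes of the whole table in this comparison.

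Upstream of the family, ligand transcripts were scarce and the signaling genes rose in part. Ifnb1, the gene of IFN-β, was listed at 0 in the 6 libraries without LPS, at 8, 5 and 13 in LPS and at 4, 2 and 8 in oxLDL+LPS libraries. Ifng, the gene of IFN-γ, was listed at 0 without LPS, at 12, 14 and 6 in LPS and at 1, 10 and 9 in oxLDL+LPS libraries. The other 5 listed interferon genes, of the α and λ types, were at 0 in all 12 libraries. Among 7 receptors and kinases, 6 were called higher and 1 lower with LPS, with Jak2 higher by 3.93 ± 0.14 (SE) and Ifngr1, the ligand-binding chain of the IFN-γ receptor, lower, having fallen by 0.57. Ifngr2, the other chain of that receptor, was called higher (0.37) but not after the libraries were rescaled (−0.11). Among 6 transcription factors, 4 were called higher, namely Irf7 (6.77), Irf1 (5.11), Stat2 (4.49) and Irf9 (2.08). Irf3 (−0.16) and Irf8 (0.15) were not called, and both calls depended on the scale. Irf3 was called lower when the libraries were rescaled (−0.64, adjusted p 0.0012 by limma) and with quantile normalization (−0.36, adjusted p 0.021 by limma). Irf8 turned to −0.33 when rescaled (adjusted p 0.147 by limma) and to −0.39 with quantile normalization, where it was called lower (adjusted p 0.0908 by limma). All 6 inhibitors of interferon signaling were called higher, led by Usp18 (7.11), which blocks the IFN-α/β receptor, Socs3 (6.50) and Socs1 (6.23), and 5 of them remained called after rescaling, all but Ptpn1 (0.49, rescaled 0.0058).

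With oxLDL+LPS against LPS, limma called none of the tested genes of these lists, and the block called a few. They were Jak2 (−0.38) and Ifnar1 (−0.42) of the 7 receptors and kinases, Irf8 (−0.83) of the 6 transcription factors, and Socs1 (−1.03) and Socs3 (−1.18) of the 6 inhibitors. All were lower with oxLDL, as were 8.75% of all genes tested by that fit. The block called 3 of the 15 genes of the autophagy list higher, Sqstm1 (1.297), Gabarapl1 (0.52) and Atg5 (0.32), beside 4.41% of all genes tested. Sqstm1 encodes the receptor p62, which brings ubiquitin-marked vacuoles to the autophagy machinery. With LPS against control the 15 genes of that list, which include the conjugation system that places IRGs and guanylate-binding proteins on vacuoles, split into 6 called higher and 7 called lower. After rescaling 3 were called higher and 9 lower, and Atg3, Becn1 and Traf6 were no longer called. The E3 ligase gene Trim21 rose by 3.84, Sqstm1 by 1.27 and Atg16l1 by 0.87. Atg7 fell by 1.47, Ulk1 by 1.21, Map1lc3b by 0.90, Atg12 by 0.59 and Atg5 by 0.24, the last no longer called without control replicate 3 (adjusted p 0.178 by limma) or LPS replicate 2 (0.107).

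**Figure D5:**
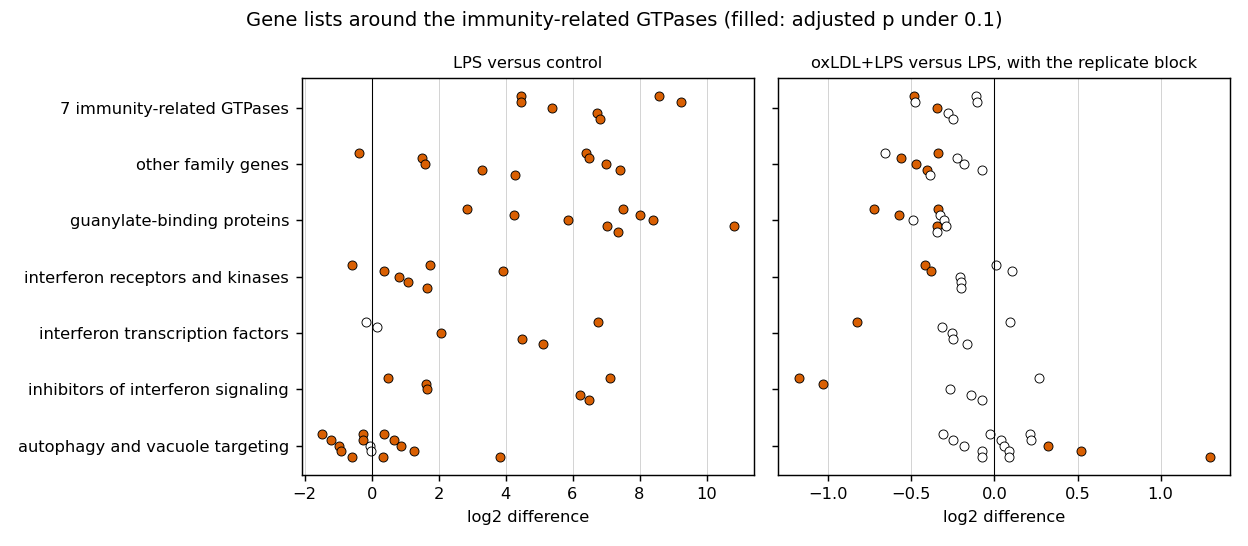
Difference in log2(normalized count + 1) (x axis) of each tested gene in 7 lists (y axis), for LPS versus control on the left and for oxLDL+LPS versus LPS with the replicate block on the right, with filled points for an adjusted p under 0.1. On the left, genes that passed the filter only through LPS libraries are included. There the 7 IRGs span 4.46 to 9.24 and the autophagy list −1.47 to 3.84, and on the right the filled points of the IRGs, other family genes and guanylate-binding proteins all lie below 0.

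Genes whose pattern was most like the mean of the 7 were taken by Pearson's r of log2 values over the 12 libraries, among 13449 other genes. They were Ddx58 (0.9995), which encodes the RNA sensor RIG-I, Gch1 (0.9995), which makes the cofactor of nitric oxide synthase, Pyhin1 (0.9994), Tpst1 (0.9994) and Parp12 (0.9994). Bst2, the only gene outside the family with the close GAS and ISRE arrangement described above, was the tenth (0.9991). The libraries fall into those with and without LPS, so r mainly reports the step between them, and 397 genes (2.95%) had an r above 0.99.

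The libraries were of like depth, with an implied 16725463 to 26176609 reads. Genes known to answer to LPS followed the labels, and Tnf, Il6, Il1b and Cxcl10 summed to 85 to 121 without LPS and to 47456 to 339259 with it. The 7 macrophage markers summed to 231531 to 342060 and all were present. Of the cells that could supply IFN-γ, the 5 NK cell markers summed to 0 to 8 in every library. The 5 T cell markers summed to 13 to 27 without LPS and to 81 to 239 with it. Of these, Lck measured 11 to 26 without LPS and 79 to 234 with it, whereas Cd3e, Cd3d, Cd3g and Trbc2 stayed at 0 to 2 in every library. Mesothelial and fibroblast markers summed to 4793 to 28756. The part of other cells in the values of the 7 genes was not tested, and in a bulk culture more cells expressing a gene and more RNA per cell cannot be told apart.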

How the data were processed

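Poly(A) RNA of 12 PMφ cultures, 4 groups of 3, was sequenced. Per the labels, reads were trimmed with Trimmomatic 0.32, aligned to mm10 with STAR 2.5.1b and counted per GENCODE gene with featureCounts. The deposited score is such a count multiplied by 1 factor per library and rounded, which was read from the spacing of the values (factors 0.763 to 1.413). It is called the normalized count. Tests for raw counts were therefore not used. Whether counting used the strand is not given in the sources used here. Of 43278 rows, 25 carried dates in place of symbols (at most 0.165% of a library) and were left out.

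Groups were compared with limma 3.58.1 in R 4.3.3 (lmFit, eBayes with a trend) on log2(normalized count + 1), and the filter kept genes that reached 10 in 3 or more of the compared libraries. Benjamini-Hochberg adjusted p under 0.1 over all genes tested was called. Each comparison used its 6 libraries, and the interaction used 12. The fit was tested on simulated data. The study's methods use no block. The paper describes pools divided among groups, and the deviations of libraries with the same replicate number correlated at 0.305 to 0.733 over 11170 genes in every pair, so the numbers pair the libraries and the fit with the number as a block is given where it changes a call. The paper states for its figures in general that data come from independent experiments and that n counts biological replicates, 3 for its RNA-seq figure. No source names the pool behind each replicate number, so the p-values are said only to measure the spread between these cultures.

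Named were the 7 genes, 10 further genes of the family and 6 pathway lists. One gene of these lists is not reported here. The members and lists were chosen with earlier results of these data known. Positions and exon lengths came from the GENCODE vM21 annotation of GRCm38 by symbol, a later release than the authors used. Intervals on implied reads were exact. Alternatives were the block, a pseudocount of 10, other filters and scalings, no trend, 1 fit for 12 libraries, Tgtp1 and Tgtp2 summed, and leaving out each library. Python 3.11.15 and Biopython 1.88 were used for sequences.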

Additional observations from a re-analysis of the deposited data

How the results depend on the processing

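All 7 genes that LPS raised were called higher in LPS versus control and in oxLDL+LPS versus oxLDL under the block, a pseudocount of 10, no filter, rescaling, quantile normalization, no trend and 1 fit for 12 libraries. These calls add nothing for Iigp1 and Tgtp1, nor for Tgtp2 in oxLDL+LPS versus oxLDL. These genes passed the filter only through libraries with LPS and had to differ. A value of at least 10 in every library left 5 and 4 genes, all called, because fewer genes were tested. Leaving out each library gave 5 to 7 called in both, and every gene tested was called. The count was 5 where a library with LPS was left out, because 5 genes then passed the filter. In oxLDL versus control the block called 599 genes and 0 of the 5 tested among the 7. Of the lists it called lower 3 of 6 other family genes, 1 of 6 transcription factors and 1 of 6 guanylate-binding proteins. It called higher 2 of 15 autophagy genes, and none of the receptors, kinases and inhibitors was called. Over all genes tested, 2.91% were called lower and 1.79% higher. In oxLDL+LPS versus LPS the block called 1680 genes and 2 of the 7, and 1 fit for 12 libraries called 29 genes. Leaving out a library there gave 0 to 91 genes, the latter without oxLDL+LPS replicate 2, and leaving out a pair under the block gave 70, 2945 and 0 genes without numbers 1, 2 and 3, and 0 to 5 of the 7. The interaction gave 0 to 6 genes, the latter without oxLDL+LPS replicate 2. The cause of these changes was not tested.
Among the 7 genes, signs turned only in differences that were not called. Irf8 in LPS versus control, not called in the main fit, was called lower with quantile normalization (adjusted p 0.0908 by limma). Ifngr2 in that comparison was called higher in the main fit and turned negative, without a call, when the libraries were rescaled. In oxLDL versus control Ifi47 went to −0.0014, −0.13 and −0.061 without control replicate 1, control replicate 2 and oxLDL replicate 3, within a range of −0.13 to 0.15 over the libraries left out, and Irgm1 to 0.029 without oxLDL replicate 3, within −0.17 to 0.029. In oxLDL+LPS versus LPS quantile normalization gave 0.038 for Irgm2 and 0.026 for Igtp, and Igtp ranged from −0.18 to 0.0086 over the libraries left out, the latter without LPS replicate 3. In the interaction a pseudocount of 10 gave −0.0039 for Igtp and −0.040 for Tgtp2. Leaving out a library gave −0.10 to 0.13 for Irgm2, −0.071 to 0.11 for Igtp and −0.020 to 0.48 for Tgtp2. Irf8 in LPS versus control turned to −0.33 with rescaling, −0.39 with quantile normalization and −0.13 without LPS replicate 3, and to 0.31 without LPS replicate 2. Other results for the 7 genes kept their direction. With values of 0 to 12 without LPS, depth limits Iigp1, Tgtp1 and Tgtp2 most.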

Other observations

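Over the 12 libraries the 21 pairs among the 7 genes had a Pearson's r of log2 values between 0.976 and 0.999, which reports the step between libraries with and without LPS. Among the 6 libraries with LPS, the deviations from the group means ranged more widely, with r from −0.316 to 0.975. The highest were those of Igtp with Ifi47 (0.975), Irgm1 with Irgm2 (0.952) and Igtp with Tgtp2 (0.858), and Iigp1 went with Tgtp2 (0.836) and Tgtp1 (0.774) but not with Irgm1 (0.0951) or Irgm2 (−0.0098). The 6 points share their scaling factors, and these values are a description with no test.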
